A study of Drosophila melanogaster with 6 samples.

Results

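The genes *Eig71Ea* to *Eig71Ej* (ecdysone-induced genes of the late puff at 71E) form a cluster on the left arm of chromosome 3, and their transcript signals were read on 6 expression arrays of larval fat body. They were chosen by name: a probe set belonged to the cluster where its array annotation, or a synonym of the same gene, gave a listed member. Of the 10 listed genes, 8 had a named probe set, against 11982 genes with a named probe set in the whole series. Each of these 8 genes had 1 probe set, and *Eig71Eb* and *Eig71Ec* had none with their name in the annotation used here.

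The tested animals were *delg* mutants of the genotype *delg613*/Df(3R)ro80b (3 samples), and the controls were +/Df(3R)ro80b (3 samples). *delg* encodes an Ets transcription factor related to mammalian NRF-2alpha, and *delg613* carries a premature stop codon. Larvae of both groups carried 1 copy of the deletion Df(3R)ro80b, so that the controls were heterozygous for it and not wild type. Each sample was a pool of 60 fat bodies, dissected at an age of 6 days. The label that says so speaks of mutant larvae for the control samples as well. The paper describes the larvae used for the arrays as late-stage and wandering. For its experiments on mid-stage larvae it took *delg* mutants at a later age than controls. Whether the groups here differed in stage at the same age was not tested, and such a difference cannot be told apart from genotype. The study asked which genes of the fat body depend on *delg*, and the p-values below measure the spread between such pools.

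Late puffs are swellings of the giant salivary gland chromosomes that appear after a pulse of the steroid hormone ecdysone. Ecdysone acts through a receptor made of EcR and Usp, which switches on early regulators such as Broad, and these in turn switch on late genes such as those at 71E. Most genes of the 71E puff encode small secreted proteins rich in cysteine that resemble antimicrobial peptides. *Eig71Ee* is the exception: it is transcribed earlier, together with the glue genes of the larval salivary gland, whose products fix the pupal case to its support, and its protein has also been found in clots of the hemolymph.

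The values are MAS5 signals in arbitrary units, scaled to the same trimmed mean on every array, and the median signal of all probe sets lay between 55.5 and 64.8 on the mutant arrays and between 62.4 and 75.5 on the control arrays. Signals of different probe sets are not a scale of transcript amount, so each gene was compared with itself across the samples. The fat body storage protein gene *Lsp2* had signals between 57153 and 66533 in the mutants and between 60841 and 75546 in the controls. *Ets97D*, the gene of *delg*, had 71.7, 87.1 and 91.9 in the mutants and 135, 122 and 213 in the controls, but a stop codon need not lower the transcript, and its signal is therefore no check on the genotype. The deposited values hold no detection calls, so dim signals were set beside those of 112 odorant and gustatory receptor genes, a set chosen after the values were seen. The 90th percentile of the receptor genes lay between 35.2 and 38.1 on the mutant arrays and between 41.5 and 58.8 on the control arrays, and a fold change that rests on readings below it is not exact.

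In several transcripts control replicate 2 differed from the other 5 samples. It was low in glue transcripts of the salivary gland, in *Fbp1*, a receptor gene for storage proteins in the fat body (40320, 47427 and 46299 in the mutants, 65884, 1103 and 57207 in the controls), and in *NimC2*, a gene of the nimrod family (7.92, against at least 1881 in each other sample). It was the highest sample for the collagen gene *Col4a1* (4131, 5296 and 4170 in the mutants, 8511, 36789 and 12715 in the controls). Glue genes and *Fbp1* are known to be switched on late in larval life. Whether this pool differed from the others in stage or in the tissue dissected was not tested, and it bears on every reading of *Eig71Ee*, the glue genes and the ecdysone response below.

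None of the 8 measured *Eig71E* genes passed the test between mutants and controls (limma, adjusted p under 0.05 over all probe sets), so that 0 rose and 0 fell. Over all genes, 4.45% rose and 3.75% fell. At an unadjusted p under 0.05, 2 members were higher in the mutants (*Eig71Ea* and *Eig71Ed*) and 1 was lower (*Eig71Ej*), against 11.3% of all genes higher and 11.7% lower at that threshold. The same 3 genes were those whose groups did not overlap. Over all genes, 14.5% were higher in every mutant sample than in every control sample and 15.6% were lower in every one. The log2 fold changes of mutant over control were above 0 for 4 members and below 0 for 4, and their median of 0.08 stood beside a median of -0.09 over all genes. Without control replicate 2, 3 members were above 0 and 5 below, and their median was -0.31.

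**Figure D1:**
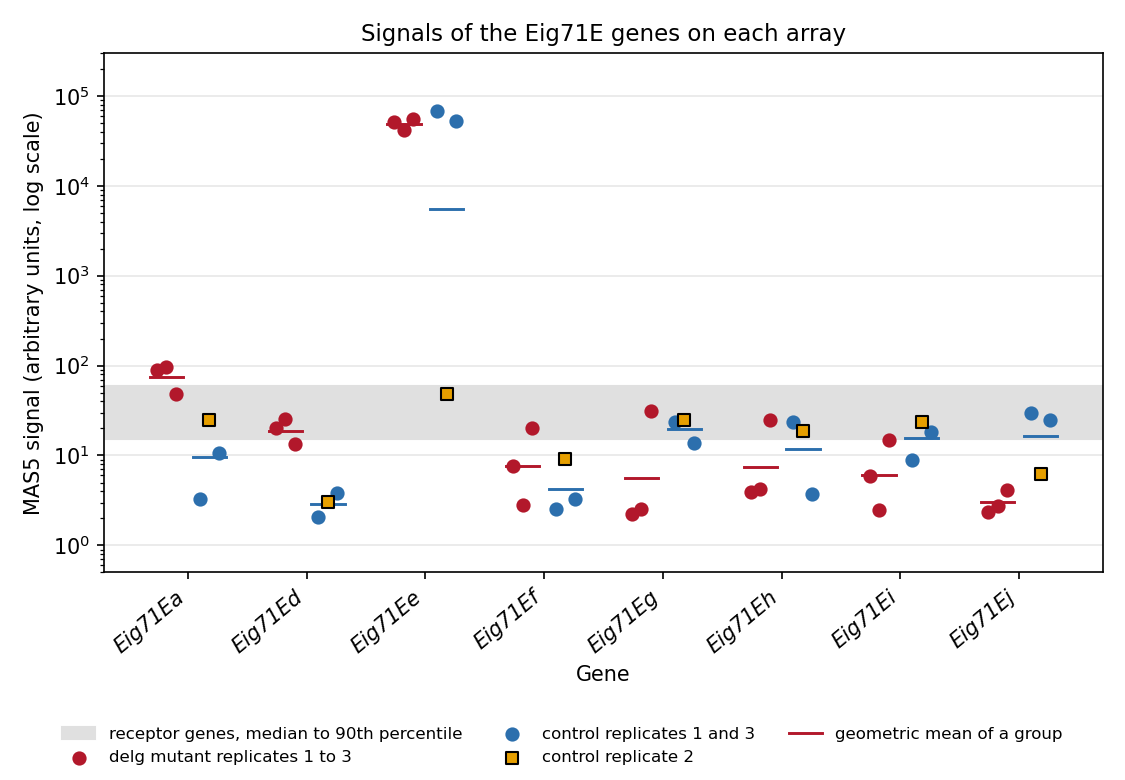
MAS5 signal (arbitrary units, log scale) of the 8 measured *Eig71E* genes on the 3 *delg* mutant arrays (red circles) and the 3 control arrays (blue circles, with control replicate 2 as an orange square). Horizontal lines are geometric means of a group, and the grey band runs from the lowest median to the highest 90th percentile per array of 112 odorant and gustatory receptor genes (15.2 to 58.8). *Eig71Ee* lies between 41253 and 67083 on 5 arrays and at 48.1 in control replicate 2, while no other member exceeds 95.8.

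*Eig71Ee*, the member known from the glue-producing salivary gland, had signals of 50983, 41253 and 55172 in the mutants, against 67083, 48.1 and 52940 in the controls. Control replicate 2 alone was low. The other 5 samples lay within a narrow span, and the groups overlapped. Mutant samples averaged 49136 ± 7141 and control samples 40024 ± 35335 (SD, n = 3 each). The log2 fold change was 3.14 (standard error 2.39, 95% confidence interval -2.33 to 8.60, limma adjusted p = 0.554).

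The reading in control replicate 2 lay below the 90th percentile of the receptor genes on that array (58.8). Set against that percentile, the lowest of the other 5 samples was at least 702-fold higher. The reading also lay below the median of its array, whereas *Eig71Ee* was above the array median in the other 5. Without control replicate 2 the log2 fold change was -0.29 (standard error 0.21, interval -0.76 to 0.19, limma adjusted p = 0.488). The direction therefore turned on that sample, and the test was not passed either way. Because tissue was measured in bulk, fewer cells of a type and less RNA per cell cannot be told apart.

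The same fall in control replicate 2 was found in the glue genes. Of 11982 genes, 7 were at least 100-fold lower in control replicate 2 than in the lowest of the other samples, with readings under the receptor genes' 90th percentile raised to it and with both limits chosen after the values were seen. These were *Eig71Ee* and 6 glue genes of the *Sgs* family, for which the gap was between at least 118-fold (*Sgs1*) and at least 910-fold (*Sgs3*). *Sgs5*, for example, had signals of 46708, 42944 and 50370 in the mutants, against 51098, 8.29 and 34984 in the controls.

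The genes whose signals over the 6 arrays were most like those of *Eig71Ee* were again genes low in control replicate 2, so that this ranking restates that fall. Likeness was measured as the root mean square difference of log2 signals, each gene centred on its own mean, among 6679 genes. *Sgs7* came nearest (difference 0.53), with 31538, 16961 and 32884 in the mutants and 39678, 19.2 and 11378 in the controls. *CG12715* (0.59), *Sgs8* (0.62) and *CG34279* (0.66) followed.

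**Figure D2:**
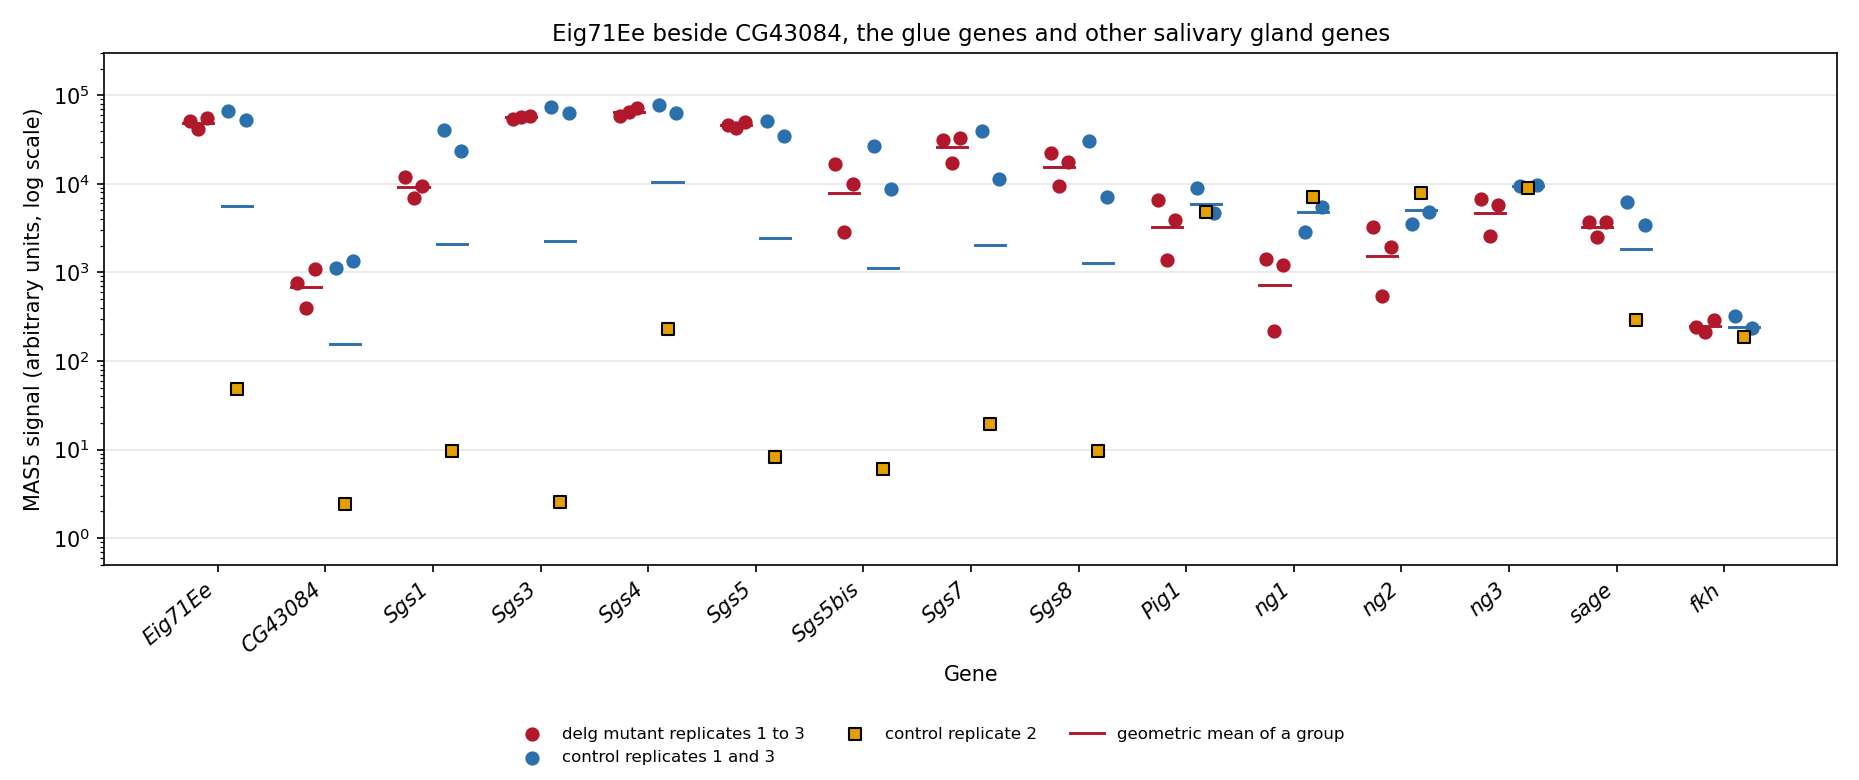
MAS5 signal (arbitrary units, log scale) of *Eig71Ee*, its neighbour *CG43084*, glue genes and other salivary gland genes in the *delg* mutant samples (red circles) and the control samples (blue circles, with control replicate 2 as an orange square). Horizontal lines are geometric means of a group. *Eig71Ee*, *CG43084* and the *Sgs* genes drop together in control replicate 2, while *ng1*, *ng2* and *ng3* do not.

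Not every gene of the salivary gland followed this pattern. All 12 listed glue genes were measured and 0 rose and 0 fell (1 fell without control replicate 2), with summed signals between 204490 and 262802 in the mutants and between 29094 and 366416 in the controls. *ng1*, a glue-related gene expressed in the gland before the *Sgs* genes, had 1421, 216 and 1210 in the mutants, against 2848, 7064 and 5541 in the controls. Control replicate 2 was thus the highest sample for *ng1*, and the groups did not overlap (log2 fold change -2.74, standard error 0.68, limma adjusted p = 0.0516).

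Of the listed salivary gland genes other than glue, 6 of 7 were measured, and their summed signals lay between 5039 and 7707 in the mutants and between 2458 and 12806 in the controls. *sage*, which encodes a salivary gland transcription factor, had 3701, 2529 and 3750 in the mutants and 6221, 293 and 3426 in the controls, so that control replicate 2 was lowest. *PH4alphaSG2*, a prolyl hydroxylase gene of the gland, was the 1 gene of this list that fell (277, 135 and 261 in the mutants, against 826, 918 and 691 in the controls, log2 fold change -1.92, standard error 0.32, limma adjusted p = 0.0107). The lowest signal of any probe set on these arrays was 0.12, so a reading above 0 does not show that a marker was present. The part of salivary gland tissue in the signal of *Eig71Ee* was not tested.

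The small secreted protein genes of the late puff gave dim readings on these arrays. Apart from *Eig71Ee*, the 7 members had signals between 2.09 and 95.8, and 6 of them, all but *Eig71Ea*, were below the array median in every sample. *Eig71Ea* was above the 90th percentile of the receptor genes in 3 mutant samples and 0 control samples, *Eig71Ee* in 3 mutant and 2 control samples, and the other 6 members on no array.

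*Eig71Ea* had signals of 89.0, 95.8 and 48.4 in the mutants, against 3.29, 24.6 and 10.8 in the controls. Every mutant sample was higher than every control sample, and 2 mutant samples exceeded the median of their array. The means were 77.7 ± 25.6 in the mutants and 12.9 ± 10.8 in the controls (SD, n = 3 each), a log2 fold change of 2.96 (standard error 0.89, interval 0.93 to 4.99), which did not pass the test (limma adjusted p = 0.0965). Without control replicate 2, the highest of the controls, *Eig71Ea* was called higher in the mutants (log2 fold change 3.65, standard error 0.88, limma adjusted p = 0.0427).

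*Eig71Ed* had signals of 20.2, 25.1 and 13.4 in the mutants, against 2.09, 3.03 and 3.82 in the controls. The groups again did not overlap, with all mutant samples higher, but no reading reached the 90th percentile of the receptor genes. The log2 fold change was 2.71 (standard error 0.78, interval 0.92 to 4.50, limma adjusted p = 0.0854).

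*Eig71Ej* went the other way, with signals of 2.34, 2.78 and 4.18 in the mutants, against 29.4, 6.15 and 24.9 in the controls. Every mutant sample was lower than every control sample, again below the 90th percentile of the receptor genes throughout. The log2 fold change was -2.46 (standard error 0.90, interval -4.53 to -0.38), and the test was not passed (limma adjusted p = 0.174).

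For the remaining members the groups overlapped. *Eig71Ef* had 7.59, 2.81 and 20.3 in the mutants and 2.55, 9.10 and 3.26 in the controls (log2 fold change 0.84, interval -1.45 to 3.13). *Eig71Eg* had 2.25, 2.57 and 31.5 in the mutants and 23.4, 24.7 and 13.8 in the controls (-1.82, interval -4.45 to 0.82). Mutant replicate 3 was the highest sample for both genes.

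*Eig71Eh* had 3.96, 4.24 and 24.6 in the mutants and 23.5, 18.9 and 3.74 in the controls (log2 fold change -0.67, interval -3.23 to 1.89). *Eig71Ei* had 5.94, 2.46 and 14.9 in the mutants and 8.86, 23.5 and 18.4 in the controls (-1.38, interval -3.56 to 0.80). Mutant replicate 3 was again the highest mutant sample for both. Their limma adjusted p-values were 0.823 for *Eig71Eh* and 0.505 for *Eig71Ei*, beside 0.736 for *Eig71Ef* and 0.462 for *Eig71Eg*. Intervals of this width leave changes of several fold in either direction undetectable with 3 samples a group.

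*Eig71Ek*, which lies next to *Eig71Ej* and was not among the listed members, had 4.15, 11.7 and 2.47 in the mutants and 1.30, 1.35 and 13.7 in the controls. The groups overlapped, and the log2 fold change of 0.77 (standard error 1.13) did not pass the test (limma adjusted p = 0.793). Like 6 of the members, it was below the array median in every sample.

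Along the chromosome the genes run *Eig71Ea*, *Eig71Eb*, *CG43084*, *Eig71Ec*, *Eig71Ed*, *Eig71Ee* and on to *Eig71Ej*, in the order of the gene table. The log2 fold changes of *Eig71Ea*, *Eig71Ed*, *Eig71Ee* and *Eig71Ef* were above 0 and those of *Eig71Eg* to *Eig71Ej* below 0, with wide intervals, and that of *Eig71Ee* was -0.29 without control replicate 2. Of 11 other genes within or beside the cluster, counting 5 on each side, 1 rose and 0 fell. The gene that rose was *comm3*, a member of the commissureless family, with 937, 641 and 1118 in the mutants, against 47.7, 116 and 64.9 in the controls (log2 fold change 3.62, standard error 0.39, limma adjusted p = 0.00167). A dimmer probe set for *comm3* did not show this rise (log2 fold change -0.71, limma adjusted p = 0.801), and the call was lost when both were averaged (limma adjusted p = 0.249).

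*CG43084*, which lies inside the cluster, followed *Eig71Ee* in its low value in control replicate 2. It had 766, 399 and 1088 in the mutants, against 1107, 2.42 and 1353 in the controls. The groups overlapped, and the lowest of the other samples was at least 6.78-fold higher than control replicate 2, whose reading was taken at the 90th percentile of the receptor genes. The log2 fold change was 2.17 with all samples (limma adjusted p = 0.665) and -0.82 without control replicate 2 (limma adjusted p = 0.267). Farther out, *Pgant8*, which encodes an enzyme of O-glycosylation, had 714, 907 and 589 in the mutants and 493, 263 and 405 in the controls, with no overlap and a log2 fold change of 0.96 (limma adjusted p = 0.105).

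**Figure D3:**
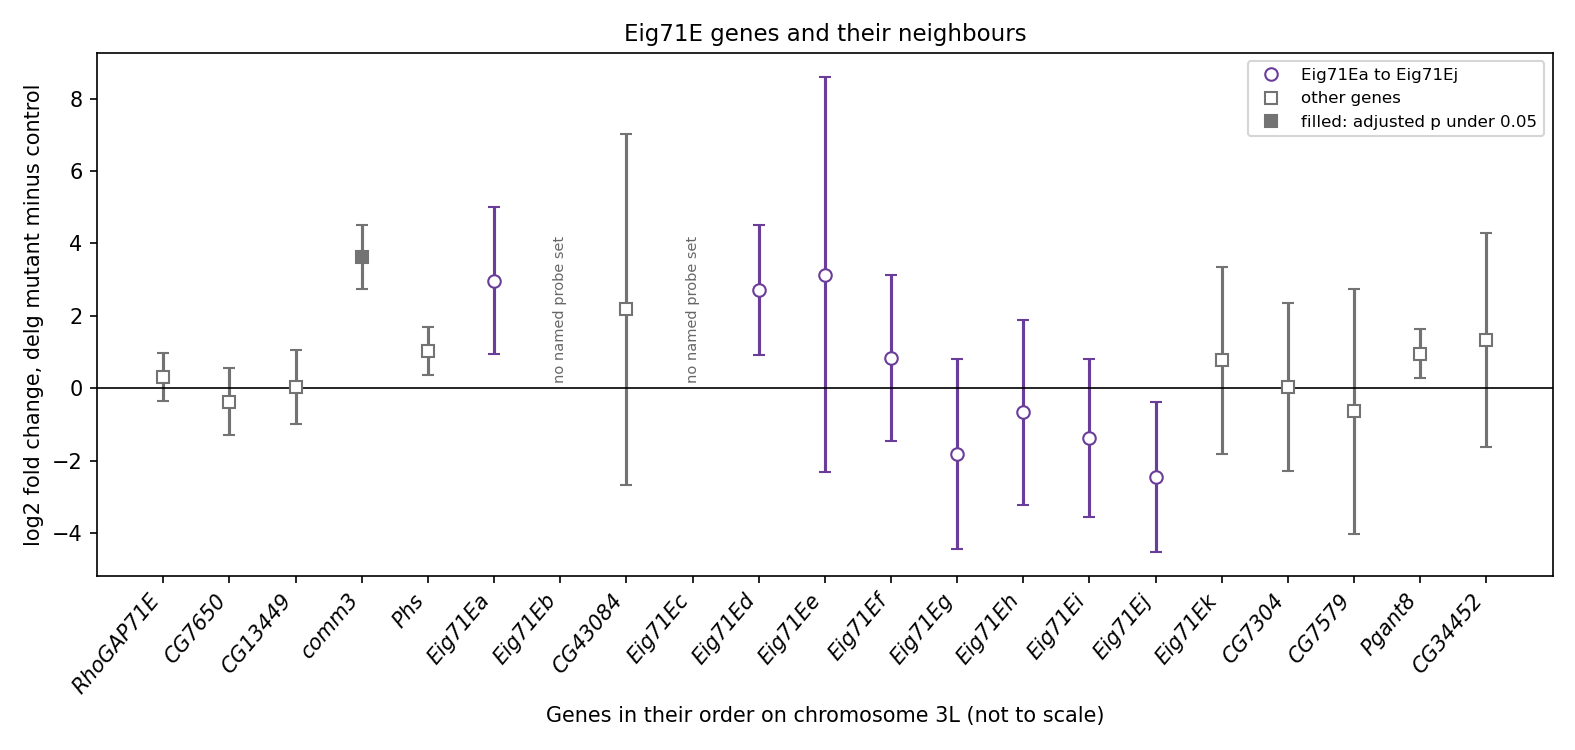
Log2 fold change of *delg* mutant over control with its 95% confidence interval for the *Eig71E* genes (purple circles) and neighbouring genes (grey squares), in their order along chromosome arm 3L and not to scale. Filled symbols mark an adjusted p under 0.05. *comm3* is the 1 filled symbol, and the intervals of *Eig71Ee* and *CG43084*, which were both low in control replicate 2, are the widest.

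The ecdysone receptor genes and regulators of the late puffs were measured on the same arrays. Their list also held *ImpE1*, *ImpE2*, *ImpE3*, *ImpL1* and *ImpL2*, which are not regulators of the puffs. Of 22 listed genes, 17 had a named probe set, and *Eip74EF* and *Eip75B* were among those without one. Of the 17, 6 rose and 0 fell, with a median log2 fold change of 1.06. Over all genes 4.45% rose and 3.75% fell, with a median of -0.09. *EcR*, which encodes the hormone-binding part of the receptor, had 864, 772 and 1598 in the mutants and 645, 261 and 699 in the controls. The groups did not overlap, but the log2 fold change of 1.06 (standard error 0.43) did not pass the test (limma adjusted p = 0.218), and was 0.60 without control replicate 2. *usp*, for its partner, had 628, 513 and 661 in the mutants and 373, 345 and 550 in the controls (0.53, limma adjusted p = 0.306).

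*br*, the early gene that encodes the Broad zinc finger proteins and is needed for the 71E puff, rose: its signals were 5668, 4959 and 7886 in the mutants, against 2072, 1270 and 2092 in the controls (log2 fold change 1.78, standard error 0.26, limma adjusted p = 0.00690). All mutant samples lay above all controls. Its 4 other probe sets had log2 fold changes between 1.57 and 3.05, and for 1 of them the test was not passed (limma adjusted p = 0.130).

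*Eip78C*, an orphan nuclear receptor gene of an early puff, and *Hr4*, another nuclear receptor gene of the ecdysone response, were near the readings of the odorant and gustatory receptor genes in the controls and far above them in the mutants. *Eip78C* had 2455, 2703 and 2693 in the mutants, against 44.4, 24.4 and 12.6 in the controls (log2 fold change 6.77, standard error 0.44, limma adjusted p = 2.57e-04). *Hr4* had 609, 545 and 894 in the mutants and 2.57, 42.6 and 7.09 in the controls (6.18, standard error 0.93, limma adjusted p = 0.00699), a call that was lost without mutant replicate 3 (limma adjusted p = 0.0580). With control readings this low neither fold change is exact, and without control replicate 2 they were 6.79 for *Eip78C* and 7.29 for *Hr4*. Dimmer probe sets for *Hr4* gave smaller log2 fold changes that did not pass the test (2.28, limma adjusted p = 0.0961, and 0.99, limma adjusted p = 0.618). Averaged over its probe sets, *Hr4* had 3.15 (limma adjusted p = 0.0257).

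*E23*, which encodes an ABC transporter that lowers the ecdysone response, had 3633, 3486 and 4158 in the mutants and 215, 40.6 and 159 in the controls (5.07, standard error 0.55, limma adjusted p = 0.00171). It was thus high in every mutant sample, as *Eip78C* and *Hr4* were. The members of the cluster themselves gave no call beside these rises, and whether the members differ from their regulators in response was not tested. Of the 16 calls for genes that are no members and were followed through every alternative, 10 were lost with limma without trend and 12 with the adjusted test that the study's methods name.

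*Hr3*, an early-late nuclear receptor gene of the ecdysone response, had 21.4, 57.3 and 57.0 in the mutants, against 1.32, 2.49 and 2.13 in the controls (log2 fold change 4.43, limma adjusted p = 0.0186). Every reading lay below the median of its array, and the call was lost when mutant replicate 2, mutant replicate 3 or control replicate 3 was left out (adjusted p up to 0.0856). *Hr39*, another nuclear receptor gene, also rose (log2 fold change 1.67, limma adjusted p = 0.00339). It had 1004, 915 and 1142 in the mutants and 344, 274 and 345 in the controls. Its call held whichever sample was left out (adjusted p up to 0.0371) and was lost with limma without trend (limma adjusted p = 0.0569). Other probe sets for *Hr39* had log2 fold changes of 1.41, 1.85 and 3.04, the last not passing the test (limma adjusted p = 0.0966). *ftz-f1*, the nuclear receptor gene of the prepupal stage, had 41.2, 42.3 and 34.8 in the mutants and 88.9, 173 and 105 in the controls (-1.58, limma adjusted p = 0.0987). Its mutant samples were all lower, in contrast with the other nuclear receptor genes named here. *Eip93F*, a regulator of tissue death at metamorphosis, had 55.5, 46.9 and 35.6 in the mutants and 2.80, 22.1 and 7.83 in the controls (2.53, limma adjusted p = 0.170), whereas a second probe set gave -0.24.

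**Figure D4:**
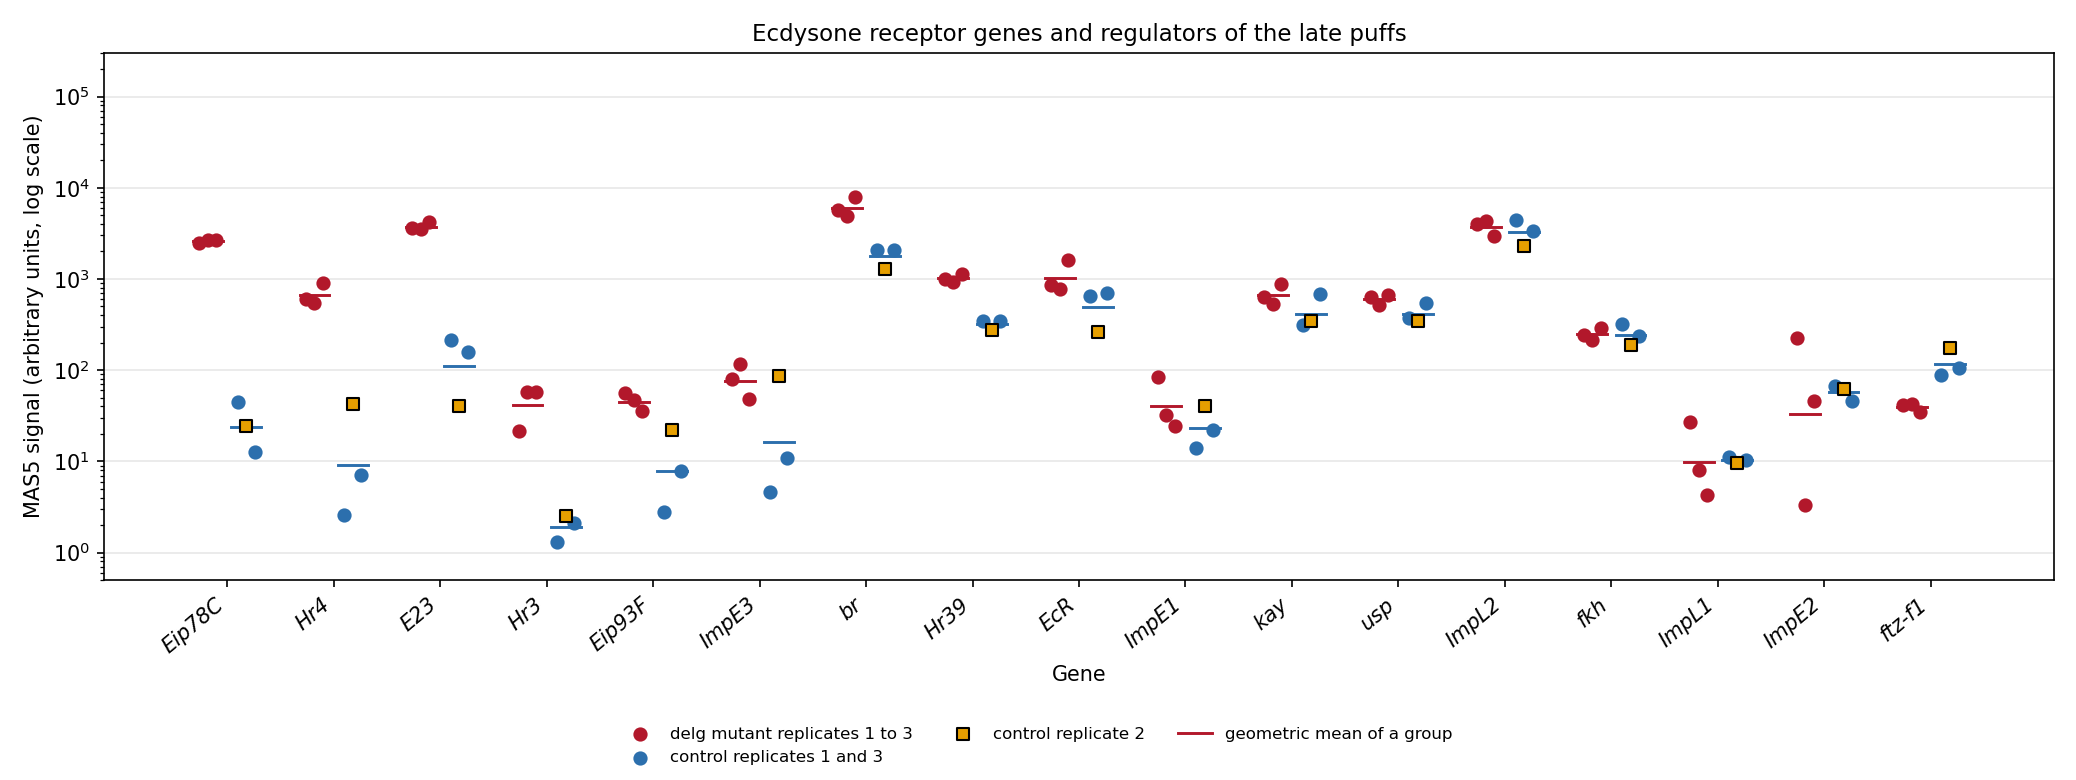
MAS5 signal (arbitrary units, log scale) of the 17 measured genes of the list of ecdysone receptor genes, late puff regulators and *Imp* genes, ordered by log2 fold change, in the *delg* mutant samples (red circles) and the control samples (blue circles, with control replicate 2 as an orange square). Horizontal lines are geometric means of a group. *Eip78C*, *E23* and *br* are higher in each mutant sample than in each control, and *ftz-f1*, at the right, is lower.

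Other puff genes named for their induction by ecdysone were also listed. Of 6 measured out of 11 listed, 0 fell (1 without control replicate 2) and 2 rose, *Eip78C* and *Eip63E*, a cyclin-dependent kinase gene with 3001, 3587 and 3219 in the mutants and 1730, 1164 and 1774 in the controls (log2 fold change 1.09, limma adjusted p = 0.0214). The call of *Eip63E* was lost without any 1 of the mutant samples or without control replicate 3 (adjusted p up to 0.104). Of the genes of programmed cell death in the dying salivary gland, 4 of 8 were measured. *rpr*, *hid*, *W* and *Drice* had no named probe set. *Debcl* (log2 fold change -0.16) and *Drep2* (1.38) were not called. Over all genes 4.45% rose, and of the 4 measured here 2 rose. These were *Dronc*, an initiator caspase gene (1219, 1164 and 1080 in the mutants, 392, 170 and 308 in the controls, log2 fold change 2.07, limma adjusted p = 0.00713), and *Dark*, for its adaptor (log2 fold change 1.87, limma adjusted p = 0.00319).

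Markers of hemocytes, the blood cells from which the protein of *Eig71Ee* is also known, were higher in part. All 11 were measured, 2 rose and 0 fell (3 rose and 1 fell without control replicate 2), with summed signals between 7236 and 11424 in the mutants and between 4949 and 6983 in the controls. The largest part of each sum was 1 gene, *srp*. It had 4344, 4359 and 6126 in the mutants and 2698, 3279 and 2986 in the controls, and was not called (limma adjusted p = 0.0789). The sums are therefore no measure of hemocyte markers as a group. The log2 fold changes were above 0 for 8 markers and below 0 for 3, *PPO1* (-0.79), *PPO2* (-0.69) and *PPO3* (-0.52). *eater*, a phagocytosis receptor gene, had 541, 213 and 900 in the mutants and 79.2, 3.62 and 17.0 in the controls (log2 fold change 4.79, limma adjusted p = 0.0340). *Pxn*, for peroxidasin, had a log2 fold change of 1.47 (limma adjusted p = 0.0438), with -0.98 in a dimmer probe set. Both calls were lost without any 1 of the mutant samples or without control replicate 3. For *eater* every mutant sample was higher than every control sample, which held for 14.5% of all genes. The part of hemocytes in the signals of the *Eig71E* genes was not tested.

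Midgut markers varied widely between samples. Their summed signals were 94114, 113 and 190 in the mutants and 4214, 280 and 9824 in the controls, with mutant replicate 1 far above the rest, and of 9 measured 0 rose and 0 fell. Control replicate 2 was the lowest control for this sum. The part of midgut in the signals of the members was not tested. Of 9 measured fat body markers 0 rose and 0 fell, with a median log2 fold change of -0.80, and 3 fell without control replicate 2.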

How the data were processed

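RNA from 6 pools of fat bodies was amplified, labelled with biotin and hybridised to Affymetrix *Drosophila* arrays, 1 pool on each array. The deposited intensities are linear MAS5 signals, which the authors made with GCOS 1.4 per the labels; the paper also names GeneSpring GX, without settings. As the files show, every array has a mean of 500 once the top and bottom 2% of signals are trimmed. The authors deposited no detection calls, so that dim signals could not be told from background by a call.

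Signals were taken to log2 with no constant, filter or further normalization. Of 18952 probe sets, 183 controls were left out and 18769 tested, of which 13647 had 1 gene symbol, 402 several and 4720 none. Names came from the platform annotation and a RefSeq gene table (Release 6 plus ISO1 MT), used for names and gene order only. Where a gene had several probe sets, the brightest one by mean log2 signal stood for it. The test of mutants against controls was limma 3.58.1 under R 4.3.3 (lmFit and an eBayes step with an intensity trend), and p-values were adjusted by Benjamini-Hochberg for all probe sets, with 0.05 as the threshold. Exact permutation of 3 against 3 samples cannot go below p = 0.1 and was not used. The procedure was tested on simulated data.

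The members and gene lists were chosen with earlier results of these data known. Named genes are every member, *Eig71Ek*, *Ets97D*, set regulators, neighbours, and the genes nearest in profile. Of each list they are up to 2 called genes per direction or the one with the smallest p. Singled out after their values were seen were *ng1*, *sage*, *Sgs5*, *Fbp1*, *NimC2*, *Lsp2*, *Pgant8*, *CG43084*, *srp*, *Hr4* and *Hr39*, and the uncalled cell death and drosomycin family genes. Alternatives were median centring, quantile normalization, constants of 100 and 16, brighter probe sets only, a replicate block, averaged probe sets per gene, no trend, array weights, each array left out, and the methods' t-test. Same-numbered samples were not taken as pairs. Sequences were not analysed here.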

Additional observations from a re-analysis of the deposited data

How the results depend on the processing

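The count of *Eig71E* genes that rose was 0 and became 1 with limma without trend (*Eig71Ed*, limma adjusted p = 0.0490), with array weights (*Eig71Ea*, limma adjusted p = 0.0397) and without control replicate 2 (*Eig71Ea*), so that the count ranged between 0 and 1 when each array was left out. The methods' t-test without adjustment gave 2 that rose and 1 that fell, and with adjustment 0 and 0. The median log2 fold change of the members, 0.08, ranged between -0.70 and 0.65 when each array was left out. It was -0.70 without mutant replicate 3 and -0.31 without control replicate 2 as well as without control replicate 3. It was 3.14 among the brighter probe sets, where *Eig71Ee* was the 1 member left. Array weights turned *Eig71Eh* to 0.40 and *Eig71Ek* to -0.42. Without control replicate 2 *Eig71Ee* turned to -0.29 and *CG43084* to -0.82, the low ends of ranges that reached 4.93 and 3.74 when each array was left out. The cause of these changes was not tested. Of 145 alternative values for the members and *Eig71Ek*, 136 kept direction and side of the threshold, 3 reversed and 6 passed the threshold or an unadjusted p under 0.05.

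Over all probe sets, 669 rose and 570 fell. These counts were 146 and 83 without trend, 1079 and 1059 with array weights, 888 and 780 without control replicate 2, and 182 and 141 with the adjusted t-test. Centring each array moved the median of all probe sets from -0.09 to 0.05 and gave 858 and 361. With the replicate block 422 rose and 265 fell. Residuals of same-numbered samples correlated at -0.041, -0.066 and -0.007, and those of different numbers between -0.037 and 0.069. These values gave no sign of pairing but cannot exclude it. With the block 0 members rose and 0 fell, with a median of 0.08. Of 16 named calls outside the cluster, 10 were lost without trend (*br*, *Hr39*, *Hr4*, *Eip63E*, *Dronc*, *PH4alphaSG2*, *Pxn*, *eater*, *Drs* and *Muc68Ca*) and 12 with the adjusted t-test, which kept *Eip78C*, *Hr39*, *Dark* and *Drsl5*. The replicate block lost 4 (*Hr3*, *Eip63E*, *Pxn* and *Muc68Ca*), averaged probe sets 2 (*comm3* and *Pxn*), the constant of 100 2 (*Hr3* and *Pxn*), quantile normalization 1 (*Pxn*) and centring 1 (*Muc68Ca*). The search for promoter motifs was not run. Dim signals and 3 arrays a group limit what could be detected for the members other than *Eig71Ee*.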

Other observations

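The antimicrobial peptide genes, whose products the small 71E proteins resemble, held calls of their own. Of 12 measured out of 21 listed, 2 rose and 0 fell, with a median log2 fold change of 1.04. Over all genes 4.45% rose and 3.75% fell, with a median of -0.09. The log2 fold changes were above 0 for 8 of the listed genes and below 0 for 4. Both calls were for genes of the drosomycin family, and its members *Drsl1*, *Drsl3*, *Drsl4* and *Drsl6* were not called (-0.14, -0.51, -0.06 and 0.25). *Drsl5*, a drosomycin-like gene, had 4870, 3694 and 5162 in the mutants, against 29.7, 77.7 and 62.5 in the controls (log2 fold change 6.43, standard error 0.36, limma adjusted p = 1.26e-04). *Drs*, for the antifungal peptide drosomycin, had 876, 889 and 1050 in the mutants and 170, 13.1 and 47.8 in the controls (4.30, limma adjusted p = 0.0164), a call that was lost without any 1 of the mutant samples or without control replicate 3 (adjusted p up to 0.0893). Of 14 mucin-type secreted genes 0 rose and 1 fell (3 fell without control replicate 2). The one called with all samples was *Muc68Ca*, with 4150, 2726 and 4593 in the mutants and 11588, 8972 and 7195 in the controls (-1.28, limma adjusted p = 0.0258). Its call held without control replicate 2 and was lost when any other sample was left out.

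The mean profile of the members, each centred on its own mean log2 signal, was -0.07, -0.32 and 1.02 in the mutants and 0.05, -0.73 and 0.05 in the controls. Mutant replicate 3 was thus highest and control replicate 2 lowest, but the low in control replicate 2 rested on *Eig71Ee*. The median signal of the other 7 members was 5.94, 2.81 and 20.3 in the mutants and 8.86, 18.9 and 10.8 in the controls. *sdt*, a gene of epithelial polarity, came nearest to the mean profile (root mean square difference 0.13 over 6 arrays), followed by *CG40228*, *ben*, *RapGAP1*, *CG14657* and *CG9426* (0.18 to 0.20). This ranking therefore follows *Eig71Ee* and dim readings, not a pattern shared by the members.

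Among markers of other tissues, 0 rose and 0 fell of 6 measured for muscle, 4 for cuticle, 5 for imaginal discs and 9 for testis. The smallest limma adjusted p was 0.0527 for *Mlc1* (muscle, log2 fold change -2.15), 0.499 for *Edg91* (cuticle), 0.107 for *ci* (discs) and 0.473 for *Mst84Da* (testis), beside 0.432 for *alphaTry* (midgut) and 0.0615 for *Col4a1* (fat body).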
